A study of Mus musculus with 16 samples.

Results

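The expression of 10 heat shock chaperone genes was followed through hyperosmotic stress and sulforaphane treatment of kidney collecting duct cells. They were chosen by gene symbol, as 9 genes known as targets of the heat shock transcription factor HSF1 plus Hspa4l, a chaperone known from the osmotic stress response. All 10 were present among the 55367 gene symbols listed in every library, and all 10 were among the 19509 genes that passed edgeR's filter on low counts.

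The heat shock response lets a cell make more chaperones when proteins unfold. HSF1, held inactive in unstressed cells partly by chaperones of the HSP70 and HSP90 families, binds heat shock elements in promoters, which are alternating GAA and TTC units, when unfolded proteins occupy those chaperones. HSP70 proteins bind exposed stretches of unfolded clients, J-domain proteins deliver the clients, exchange factors such as HSP110 and BAG proteins release them, HSP90 completes the folding of signalling proteins, and small HSPs keep unfolded proteins soluble. Cells of the renal inner medulla live in hypertonic surroundings and are known for high levels of HSP70 proteins, whose genes also respond to the tonicity factor NFAT5.

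The cells were mIMCD3, an epithelial line derived from inner medullary collecting duct of mouse kidney, either wild type (WT) or Nrf2-/-. Nrf2 (gene symbol Nfe2l2) is a transcription factor of the response to electrophiles, and sulforaphane (SFN), an isothiocyanate, activates it. Cells were first given the solvent DMSO or 10 μM SFN for 5 h and then kept in isosmotic medium (300 mOsm) or moved to hyperosmotic medium (600 mOsm). The 16 libraries were 2 replicates, described as biological, of each of 8 conditions. These were WT cells with DMSO or with SFN, each isosmotic, after 1 h and after 6 h of hyperosmotic stress, and Nrf2-/- cells with SFN, isosmotic and after 1 h of stress. Nrf2-/- cells with DMSO were not analysed here, so the genotype was compared only in SFN-treated cells. The Nrf2-/- cells were made with lentiviral CRISPR/Cas9 and drug selection. It is not stated whether they were 1 clone or a pool, or whether the WT cells carried the same vector, so effects of the knockout, of the line and of the vector cannot be told apart.

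Total counts per library lay between 34484296 and 50774875, and the 10 genes together took 0.709% to 1.32% of them. Levels are given in CPM, a gene's counts relative to the library total after TMM scaling (a correction for differences in composition between libraries), and they do not separate less RNA per cell from fewer cells. Nfe2l2 checked the genotype labels, at 64.0 to 149 CPM in the 12 WT libraries and at most 11.6 CPM in the 4 Nrf2-/- libraries. Of 12 collecting duct and epithelial markers, 9 reached 1 CPM in every library, but Aqp2, the vasopressin-regulated water channel that defines principal cells, stayed at or under 0.323 CPM, and Aqp3 was also under 1 CPM everywhere. Pax2 lay between 23.6 and 1150 CPM over the libraries, Cdh16 between 14.1 and 463 and Pax8 between 50.3 and 730. Epcam lay between 47.3 and 373 CPM and Gata3 between 0.134 and 6.65. Fold ranges were narrower for Cdh1 (138 to 462 CPM), Krt19 (307 to 834) and Hoxb7 (27.5 to 56.6). Krt8 (650 to 1110 CPM) and Krt18 (518 to 914) also varied less. Which conditions held the extremes is not given here. Summed collecting duct and epithelial markers were 2290 to 5290 CPM, against at most 40.6 CPM for 5 proximal tubule, 7.29 CPM for 4 fibroblast, 5.36 CPM for 4 endothelial and 10.7 CPM for 4 immune markers. The 2 libraries of Nrf2-/- cells after 1 h stood apart from each other, with a biological coefficient of variation of 0.348, whereas the other pairs had 0.0393 to 0.128.

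The 2 inducible HSP70 genes lie next to each other on the minus strand of chromosome 17 (GENCODE M21, GRCm38). Hspa1b occupies chr17:34956436-34959238 and Hspa1a chr17:34969190-34972156, each as a single exon without introns. Their transcripts were identical at 90.7% of aligned bases, and 49.9% of the 100-base stretches of Hspa1b also occurred in Hspa1a, so reads can be exchanged between the pair, depending on how shared reads were counted. Hspa1a also overlaps Gm20481 on the opposite strand over 564 exon bases, and the strand setting of the counting is not given in the sources used here. Of the other members, Hspa8 shared 32.1% of its 100-base stretches with other annotated genes, Hsp90aa1 47.5% and Hspb1 42.7%, which in each case made the split of reads uncertain. Hsph1, Dnajb1, Hspa4l and Bag3 shared none and Hspe1 shared 0.3%. Hspe1 also overlaps 112 exon bases of Hspd1 on the opposite strand.

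The bases just upstream of 4 members are shown because the promoter is where HSF1 acts and because the HSP70 pair, with nearly the same promoter, differed in level. They are RefSeq windows on GRCm38.p6 up to the first annotated exon base, read 5′ to 3′ on the gene's strand, with runs of at least 2 alternating GAA and TTC units spaced 5 bases apart in capitals. Hspa1b is at chr17:34959239-34959488 (minus strand), Hspa1a at chr17:34972157-34972406 (minus strand), Hspe1 at chr1:55087898-55088131 (plus strand) and Hspb1 at chr5:135887669-135887918 (plus strand).
Hspa1b: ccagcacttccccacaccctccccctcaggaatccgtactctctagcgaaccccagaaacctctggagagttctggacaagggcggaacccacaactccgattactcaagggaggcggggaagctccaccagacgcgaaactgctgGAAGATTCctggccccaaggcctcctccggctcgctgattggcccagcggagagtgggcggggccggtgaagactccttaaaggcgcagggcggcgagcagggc
Hspa1a: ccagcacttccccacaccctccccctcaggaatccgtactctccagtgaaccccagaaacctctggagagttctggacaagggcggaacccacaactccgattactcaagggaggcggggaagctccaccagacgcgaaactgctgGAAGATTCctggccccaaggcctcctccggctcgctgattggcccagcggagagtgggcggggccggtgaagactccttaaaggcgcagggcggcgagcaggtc
Hspe1: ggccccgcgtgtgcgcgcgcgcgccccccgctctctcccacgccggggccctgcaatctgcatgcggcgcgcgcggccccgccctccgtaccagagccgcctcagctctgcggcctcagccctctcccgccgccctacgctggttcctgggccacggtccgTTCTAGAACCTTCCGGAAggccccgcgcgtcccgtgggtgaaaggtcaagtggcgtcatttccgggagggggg
Hspb1: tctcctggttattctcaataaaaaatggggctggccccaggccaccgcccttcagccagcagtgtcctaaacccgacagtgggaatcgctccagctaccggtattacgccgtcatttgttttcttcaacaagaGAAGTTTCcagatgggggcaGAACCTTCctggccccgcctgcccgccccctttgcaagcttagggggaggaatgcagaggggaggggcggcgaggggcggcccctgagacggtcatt

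Over the whole 300-base window, from 250 bases before to 50 after the start, Hspa1b and Hspa1a differed at 4 positions, T44C, C47T, G249T and T276C, written as the Hspa1b base, the position from the 5′ end of the window and the Hspa1a base. None of the 4 lay in the capitalized run. RefSeq windows were found for 8 of the 10 members, and Hspa8 and Hsp90aa1 had none in the table. The motif GAANNTTC, 2 facing units, read the same on both strands and occurred in the windows of Hspa1a, Hspa1b, Hspb1 (2 matches), Bag3, Hspe1 and Hsph1, that is 6 of 8 members. It occurred in 7.86% of all 32851 promoter windows. The opposite facing pair TTCNNGAA, found in 8.52% of all windows, occurred in Hspe1 and Hsph1. Runs of 3 or more units, found in 0.6% of windows, occurred in the same 2 genes, with 4 units in Hspe1 and 3 in Hsph1. In Hsph1 neither pair lay wholly in the 210 or 189 window bases upstream of the first annotated exon base. The GAANNTTC match of Bag3 did not lie wholly in the 250 bases before the start. The windows of Dnajb1 and Hspa4l held neither pair. The Hspa4l window, chr3:40745363-40745662, lay inside the annotated gene, which starts at chr3:40744495. Bases upstream of that gene start were thus not searched for any of the motifs. A second Dnajb1 window, chr8:83608298-83608597, also began inside its gene, which starts at chr8:83608193. The core of the antioxidant response element bound by Nrf2, TGACNNNGC on either strand, was found in 12.4% of windows and in those of Hsph1 (2 matches) and Dnajb1. The NFAT5 element TonE was found in 4.96% of windows and in those of Hspe1, Hspb1 and Hsph1. GAANNTTC can overlap TTCNNGAA within a run.

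**Figure D1:**
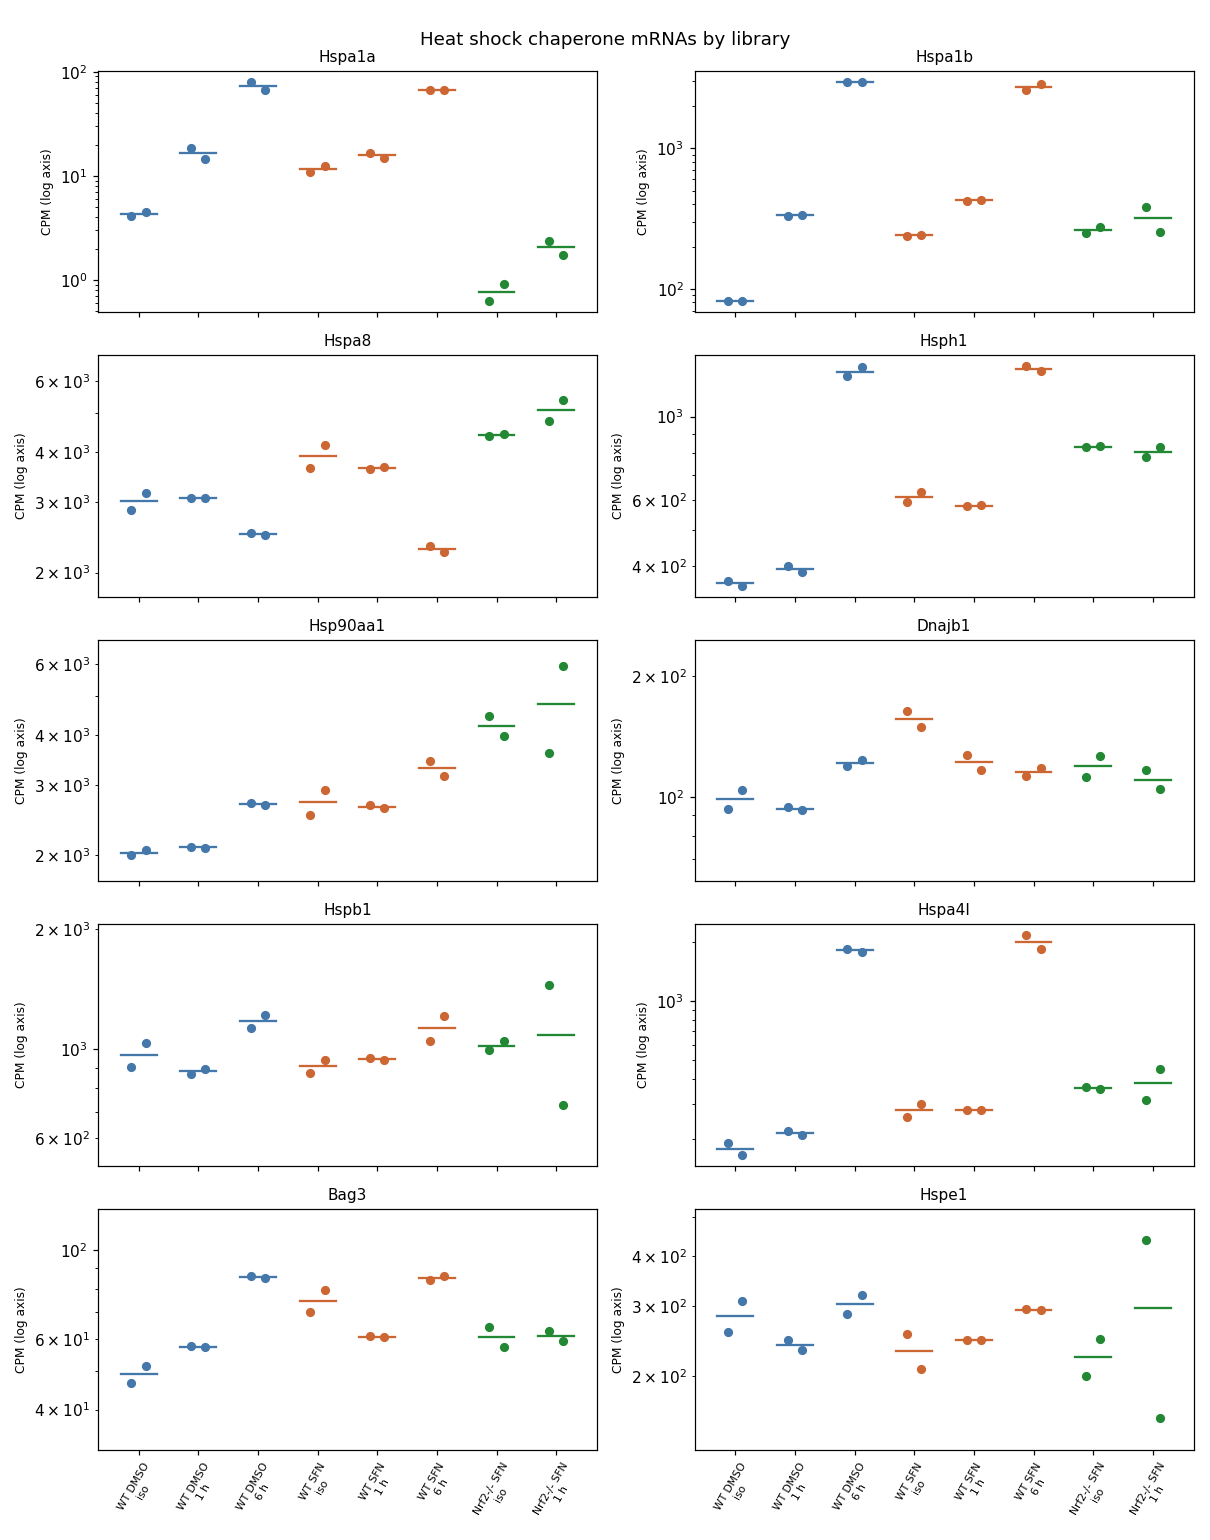
Level of each heat shock chaperone mRNA in every library, as TMM-scaled CPM on a log axis whose range differs between genes. Each point is 1 library, the short line is the mean of the 2 libraries of a condition, and blue, orange and green mark WT DMSO, WT SFN and Nrf2-/- SFN. Hspa1a, Hspa1b, Hsph1 and Hspa4l stand highest after 6 h in WT cells, and Hspa1a is lowest in Nrf2-/- cells.

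In unstressed WT cells with DMSO, the most abundant members per length of annotated exons were Hspb1 (the small chaperone HSP25 of mouse), at 942 ± 88.1 CPM per kilobase (SD, n = 2), and Hspa8 (the constitutive HSC70), at 700 ± 49.0. Hsp90aa1 (the inducible cytosolic HSP90) followed at 517 ± 10.3 and Hspe1 (the mitochondrial cofactor HSP10) at 192 ± 24.1 CPM per kilobase. Hsph1 (the exchange factor HSP105) stood at 49.6 ± 0.944, Dnajb1 (the J-domain protein HSP40) at 30.8 ± 2.35 and Hspa1b at 29.2 ± 0.0479 CPM per kilobase. The libraries of Dnajb1 and Hspa1b overlapped, so these neighbours did not differ beyond their spread. Bag3 (a cochaperone that links HSP70 to autophagy) had 19.2 ± 1.34, Hspa4l (the HSP110-type chaperone OSP94) 15.1 ± 1.40 and Hspa1a 1.45 ± 0.0930 CPM per kilobase. After 6 h of stress in the same cells, Hspa1b stood at 1060 ± 0.757 CPM per kilobase, just below Hspb1 at 1139 ± 62.4 and above Hsp90aa1 at 684 ± 5.40 and Hspa8 at 581 ± 3.78. By this measure the inducible gene was then above the constitutive HSC70, and no neighbours in that order overlapped. The order depends on the length used. The annotated exons of Hspa8 together cover 4301 bases and its longest transcript 3158, whereas Hspa1b had 2803 by both. Other lengths were not tried, and Hspa8, Hspb1, Hsp90aa1, Hspa1b and Hspa1a all share many stretches with other genes.

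Hyperosmotic stress raised the inducible HSP70 pair within 1 h in DMSO-treated WT cells. Hspa1b stood at 81.9 and 81.7 CPM in the 2 isosmotic libraries, at 332 and 336 CPM after 1 h and at 2974 and 2971 CPM after 6 h. The groups did not overlap, and Hspa1b was 4.08-fold higher at 1 h (log2 fold change 2.03, SE 0.15) and 36.3-fold higher at 6 h (log2 fold change 5.18, SE 0.17). Adjusted p was 9.05e-07 and 5.43e-11 in edgeR's quasi-likelihood test with Benjamini-Hochberg adjustment over all 19509 genes, the test behind every adjusted p given here unless another is named. Hspa1a stood at 4.10 and 4.49 CPM in the isosmotic libraries, at 18.7 and 14.6 CPM after 1 h and at 80.1 and 67.1 CPM after 6 h. It was 3.87-fold higher at 1 h and 17.1-fold higher at 6 h, with log2 fold changes of 1.95 (SE 0.18, edgeR adjusted p = 7.06e-06) and 4.10 (SE 0.19, edgeR adjusted p = 1.17e-09). From 1 h to 6 h, Hspa1b rose a further 8.90-fold and Hspa1a 4.42-fold. With the counts of the pair summed to 1 feature, the log2 fold changes were 2.03 at 1 h and 5.14 at 6 h.

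No other member was called at 1 h. Of the 10 members, 2 were called higher and 0 lower, whereas of all genes tested 7.1% were called higher and 4.11% lower. The median log2 fold change of the members was 0.085, beside 0.0016 over all genes. Of the rest, Hspa4l had the largest log2 fold change, with 189 and 166 CPM in the isosmotic libraries and 218 and 210 CPM after 1 h, at 0.26 (SE 0.14, edgeR adjusted p = 0.297). It was called when the Nrf2-/- libraries were left out of the fit, at an adjusted p of 0.0191 in edgeR over the 12 WT libraries. Bag3 differed by 0.23 on the log2 scale (edgeR adjusted p = 0.176) and Hsph1 by 0.13, neither past the threshold.

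By 6 h, the HSP110-type members Hspa4l and Hsph1 had risen with the HSP70 pair. Hspa4l stood at 1842 and 1773 CPM, 10.2-fold above the isosmotic libraries, at a log2 fold change of 3.34 (SE 0.16, edgeR adjusted p = 1.64e-09). Hsph1 went from 365 and 356 CPM to 1279 and 1352 CPM, 3.65-fold higher (log2 fold change 1.87, SE 0.09, edgeR adjusted p = 1.64e-09). For both genes every 6 h library was above every isosmotic one. The cochaperones Bag3 and Dnajb1 rose less. Bag3 went from 46.7 and 51.5 CPM to 86.0 and 85.2 CPM (log2 fold change 0.80, SE 0.10, edgeR adjusted p = 1.35e-05). Dnajb1 went from 93.4 and 104 CPM to 119 and 123 CPM (log2 fold change 0.30, SE 0.10, edgeR adjusted p = 0.0261). Hspa8 was the single member that fell, from 2861 and 3159 CPM to 2511 and 2488 CPM, at a log2 fold change of -0.27 (SE 0.10, edgeR adjusted p = 0.0358). Hsp90aa1 stood at 2004 and 2061 CPM before and 2704 and 2674 CPM after 6 h, without overlap, at a log2 fold change of 0.40 that missed the threshold (SE 0.17, edgeR adjusted p = 0.0595). Hspb1 was not called either, at a log2 fold change of 0.27. Nor was Hspe1, at 0.10, a value that turned to -0.088 with library totals as the only scaling and to -0.032 without isosmotic replicate 1.

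Both times were compared with the same isosmotic libraries, which cannot match both, so stress and time in culture cannot be told apart. In all, 6 members were called higher and 1 lower after 6 h, when 23.9% of all genes were called higher and 22% lower (4671 and 4293 genes, and 3942 and 5683 with library totals as the only scaling). Their median log2 fold change was 0.60, beside 0.048 over all genes. The calls for Hspa8 and Dnajb1 depended on the fit. Hspa8 was not called by DESeq2 (log2 fold change -0.18, adjusted p = 0.147), with RLE size factors (-0.18, edgeR adjusted p = 0.184) or among genes with at least 10 counts in every library (-0.15, 0.222). It was also lost without isosmotic replicate 2 (-0.20, edgeR adjusted p = 0.225), 6 h replicate 1 (-0.28, 0.124) or 6 h replicate 2 (-0.27, 0.140). Dnajb1 was lost with library totals as the only scaling (0.11, edgeR adjusted p = 0.409), without a filter on low counts (0.29, 0.102) and without isosmotic replicate 1 (0.22, 0.211), 6 h replicate 1 (0.32, 0.0839) or 6 h replicate 2 (0.27, 0.140). Hsp90aa1 was called by DESeq2 (log2 fold change 0.49, adjusted p = 0.0248). The median of all genes itself moved with the scaling, from 0.048 with TMM to 0.14 with RLE size factors and -0.12 with library totals alone. With SFN at 6 h it moved from 0.085 to 0.16 and -0.13, from 1 h to 6 h from -0.00076 to -0.22 with library totals, and between genotypes at 1 h from -0.022 to -0.12.

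Between 1 h and 6 h of stress, 6 members were called higher and 1 lower, beside 20.4% and 22% of all genes (3979 and 4287, and 3125 and 5979 with library totals alone). The 6 were Hspa1b, Hspa1a, Hspa4l (log2 difference 3.08), Hsph1 (1.74), Bag3 (0.58) and Dnajb1 (0.38), and the 1 was Hspa8 (-0.30). The 1 h and 6 h libraries did not overlap for any of the 10 members, including the uncalled Hsp90aa1, Hspb1 and Hspe1. How often this held over all genes was not counted, so nothing about the members can be drawn from it. Hspa8 and Dnajb1 again lost the call when single libraries were left out, Hspa8 without any 1 of the 4 libraries (edgeR adjusted p from 0.0960 to 0.113) and Dnajb1 without 1 h replicate 1, 1 h replicate 2 or 6 h replicate 2 (0.0533 to 0.0652). They were also lost with another scaling, Hspa8 with RLE size factors (-0.24, edgeR adjusted p = 0.0803) and Dnajb1 with library totals (0.15, 0.255).

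**Figure D2:**
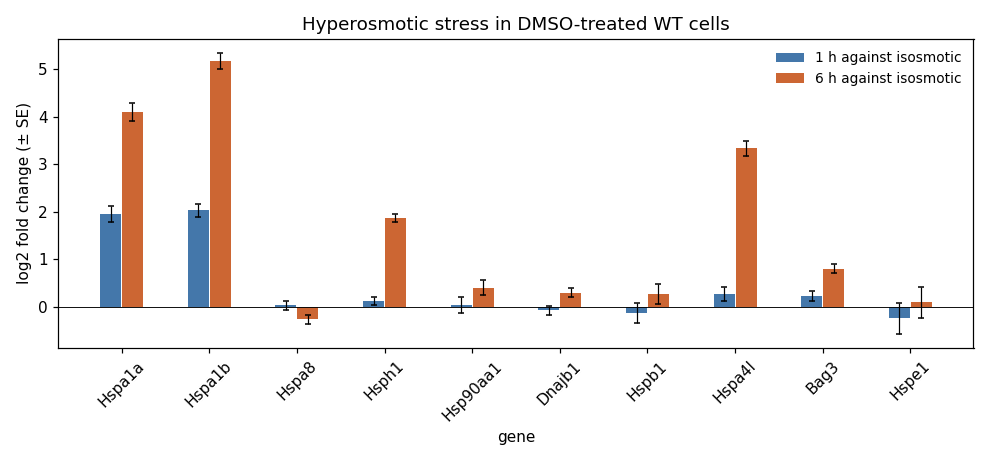
Log2 fold change of each member in DMSO-treated WT cells after 1 h (blue) and 6 h (orange) of hyperosmotic stress against the same isosmotic libraries, with the standard error from edgeR as the bar. Only Hspa1a and Hspa1b pass the test at 1 h, at 1.95 and 2.03, while at 6 h Hspa1b reaches 5.18 and Hspa4l 3.34.

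SFN alone, without any osmotic stress, raised 6 of the members in WT cells. Hspa1b went from 81.9 and 81.7 CPM with DMSO to 239 and 243 CPM with SFN, 2.94-fold higher (log2 fold change 1.56, SE 0.14, edgeR adjusted p = 1.85e-05). Hspa1a went from 4.10 and 4.49 CPM to 10.8 and 12.3 CPM, 2.70-fold higher (log2 fold change 1.43, SE 0.18, edgeR adjusted p = 2.66e-04). The SFN libraries lay above the DMSO libraries for both genes, at levels below those of 1 h of stress with DMSO. Hsph1, Dnajb1, Bag3 and Hspa4l had smaller log2 fold changes. Hsph1 was at 591 and 630 CPM with SFN (log2 fold change 0.76, SE 0.09, edgeR adjusted p = 1.19e-04), Dnajb1 at 164 and 149 CPM (0.67, SE 0.10, adjusted p = 0.00179) and Bag3 at 70.0 and 79.4 CPM (0.61, SE 0.10, adjusted p = 0.00301). Hspa4l was at 257 and 301 CPM (log2 fold change 0.65, SE 0.15, edgeR adjusted p = 0.0260).

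These were 6 of 10 members higher and 0 lower, where 1.09% of all genes were called higher and 1.76% lower (212 and 343 genes, and 326 and 300 with library totals alone). The median log2 fold change was 0.63 over the members and 0 over all genes. Hspa8, at 3644 and 4171 CPM with SFN, missed the threshold at a log2 fold change of 0.38 (SE 0.10, edgeR adjusted p = 0.0554) and passed it in DESeq2 (adjusted p = 0.00420). Hsp90aa1, at 2515 and 2910 CPM, had a log2 fold change of 0.42 (edgeR adjusted p = 0.235). Hspb1, whose libraries overlapped, had a log2 fold change of -0.10, and Hspe1, whose SFN libraries at 254 and 208 CPM lay under 258 and 308 CPM with DMSO, had -0.29 (SE 0.33). Hspa4l was no longer called without DMSO replicate 1 (0.75, edgeR adjusted p = 0.0658), DMSO replicate 2 (0.56, 0.287) or SFN replicate 2 (0.53, 0.266), and Bag3 was not called without DMSO replicate 1 (0.54, 0.0541) or SFN replicate 2 (0.51, 0.0744).

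After 1 h of stress, SFN was again compared with DMSO. Hsph1, at 400 and 388 CPM with DMSO and 578 and 583 CPM with SFN, was the 1 member called (log2 fold change 0.56, SE 0.09, edgeR adjusted p = 0.0172). None was called lower, and of all genes 0.0923% were called higher and 0% lower. The call was lost without any 1 of the 4 libraries, at log2 fold changes from 0.54 to 0.58. With only these 4 libraries in the fit 7 members were called, beside 809 of all genes. Hspa1b stood at 332 and 336 CPM with DMSO and 424 and 427 CPM with SFN, without overlap, at a log2 fold change of 0.35 (SE 0.14, edgeR adjusted p = 1). With only the 12 WT libraries in the fit it was called (log2 fold change 0.35, edgeR adjusted p = 0.00408). Hspa1a, at 18.7 and 14.6 CPM with DMSO and 16.4 and 15.0 CPM with SFN, overlapped between the treatments. The median log2 fold change of the members was 0.29, beside 0 over all genes.

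After 6 h of stress, no member was called in either direction by edgeR or by DESeq2, and none of the 10 had an unadjusted p under 0.05 in edgeR. Of all genes, 0.041% were called higher and 0% lower, and 718 of them had an unadjusted p under 0.05. Hspa1b was at 2974 and 2971 CPM with DMSO and at 2591 and 2888 CPM with SFN, so the libraries with SFN were the lower ones, at a log2 fold change of -0.12 (SE 0.14). Hspa4l was at 1842 and 1773 CPM with DMSO and 2153 and 1840 CPM with SFN, which overlapped. Hsph1 was at 1279 and 1352 CPM with DMSO and 1360 and 1317 CPM with SFN, also overlapping. Hsp90aa1 had the largest difference, 2704 and 2674 CPM with DMSO and 3446 and 3163 CPM with SFN (log2 fold change 0.30, SE 0.17), and it was called with only the 12 WT libraries in the fit (edgeR adjusted p = 0.0440).

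Whether the SFN effect differed between stressed and isosmotic cells was tested as an interaction. This was the log2 fold change with SFN under stress minus that under isosmotic conditions. At 1 h this difference was -1.52 for Hspa1a (SE 0.24, edgeR adjusted p = 0.00669) and -1.21 for Hspa1b (SE 0.20, edgeR adjusted p = 0.00883), so the SFN effect on the pair was smaller at 1 h. These 2 of 10 members were called lower and 0 higher, beside 0.0718% and 0.487% of all genes. At 6 h it was -1.68 for Hspa1b (SE 0.20, edgeR adjusted p = 5.21e-04) and -1.57 for Hspa1a (SE 0.24, adjusted p = 0.00346). Dnajb1 (SE 0.14, edgeR adjusted p = 0.0249) and Hsph1 (SE 0.12, adjusted p = 0.00690) each had a difference of -0.74. These were 4 members lower and 0 higher, beside 0.164% and 0.595% of all genes. Bag3 had -0.61 (edgeR adjusted p = 0.0656) and was called by DESeq2 (adjusted p = 7.47e-04). Hspa4l had -0.51 (edgeR adjusted p = 0.463).

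Both interactions use the same isosmotic libraries, which cannot match both times, so stress and time since SFN cannot be told apart. At 1 h, Hspa1b lost the call without either DMSO isosmotic library, either 1 h DMSO library or either 1 h SFN library (edgeR adjusted p from 0.0501 to 0.0601). Hspa1a lost it at 1 h without DMSO isosmotic replicate 1, 1 h DMSO replicate 1 or 1 h SFN replicate 2 (0.0547 to 0.0596). At 6 h, Hspa1a and Hspa1b kept it without any 1 library. Dnajb1 lost the 6 h call without any 1 of the 8 libraries (0.0531 to 0.166), and Hsph1 lost it without replicate 2 of any of the 4 conditions (0.0531 to 0.0787).

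**Figure D3:**
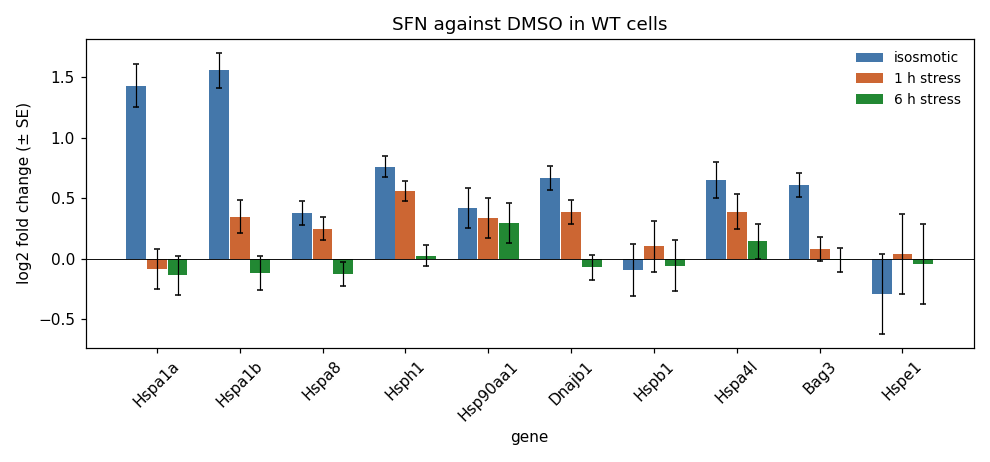
Log2 fold change of each member with SFN against DMSO in WT cells, isosmotic (blue), after 1 h (orange) and after 6 h (green) of hyperosmotic stress, with the standard error from edgeR as the bar. The isosmotic bars of Hspa1a and Hspa1b reach 1.43 and 1.56, and the 6 h bars of all members lie between -0.14 and 0.30.

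The response to stress was also measured within SFN-treated cells. In SFN-treated WT cells, Hspa1b went from 239 and 243 CPM to 424 and 427 CPM after 1 h, 1.77-fold higher (log2 fold change 0.82, SE 0.14, edgeR adjusted p = 0.00204). Hspa1a, at 10.8 and 12.3 CPM before and 16.4 and 15.0 CPM after 1 h, had a log2 fold change of 0.44 (edgeR adjusted p = 0.124). Dnajb1 fell from 164 and 149 CPM to 127 and 117 CPM (log2 fold change -0.36, SE 0.10, edgeR adjusted p = 0.0383), a call that was lost without any 1 of the 4 libraries (adjusted p from 0.0938 to 0.291), without a filter on low counts (0.0704) and among genes with at least 10 counts in every library (0.0853). So 1 member was called higher and 1 lower, beside 5.94% and 3.58% of all genes.

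After 6 h with SFN, the same cells held 2591 and 2888 CPM of Hspa1b, 11.4-fold above the isosmotic SFN libraries (log2 fold change 3.51, SE 0.15, edgeR adjusted p = 4.96e-10). Hspa1a reached 66.7 and 67.3 CPM, 5.78-fold higher, and Hspa4l 2153 and 1840 CPM, 7.15-fold higher. Hsph1 reached 1360 and 1317 CPM, 2.19-fold higher. In contrast, Hspa8 fell from 3644 and 4171 CPM to 2331 and 2255 CPM, at a log2 fold change of -0.77 (SE 0.10, edgeR adjusted p = 1.75e-05). Dnajb1 fell to 113 and 118 CPM (log2 fold change -0.44, edgeR adjusted p = 0.00251). In total 4 members were called higher and 2 lower, beside 24.7% and 22.9% of all genes (4824 and 4464, and 3901 and 6105 with library totals alone). Bag3 was not called, at a log2 fold change of 0.19, which became -0.046 with library totals as the only scaling.

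Within SFN-treated cells, Hspa1b under isosmotic conditions was at 249 and 275 CPM in Nrf2-/- cells and 239 and 243 CPM in WT cells (log2 fold change 0.12, SE 0.14, edgeR adjusted p = 0.561). Hspa1a, by contrast, stood at 0.626 and 0.913 CPM in Nrf2-/- cells and 10.8 and 12.3 CPM in WT cells, 14.9-fold lower (log2 fold change -3.90, SE 0.22, edgeR adjusted p = 4.59e-09). Its 2 Nrf2-/- libraries held 22 and 34 counts. With the pair summed, the difference was 0.056 (edgeR adjusted p = 0.820). The part of reads shared within the pair in this difference was not tested.

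The share of Hspa1a in the counts of the pair needs no scaling between libraries. It was 4.77% and 5.21% in the isosmotic DMSO libraries of WT cells and 4.34% and 4.82% in the isosmotic SFN libraries. In Nrf2-/- cells with SFN it was 0.251% (95% exact binomial interval 0.157% to 0.380%) and 0.331% (0.230% to 0.463%). After 1 h it was 3.73% and 3.39% in WT cells with SFN and 0.621% and 0.674% in Nrf2-/- cells. After 6 h in WT cells it was 2.62% and 2.21% in the DMSO libraries and 2.51% and 2.28% in those with SFN. The share thus was lowest in the 4 Nrf2-/- libraries, and within WT cells lowest at 6 h. These intervals cover counting error only, and they treat each count as independent, so they may be too narrow even for that.

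**Figure D4:**
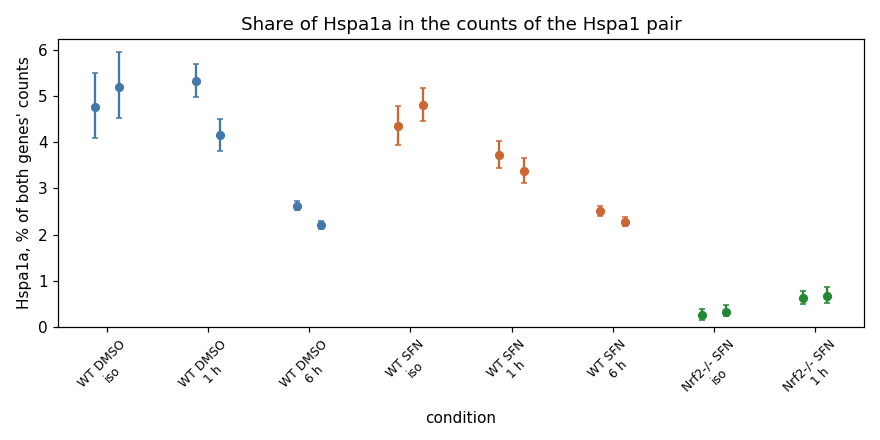
Hspa1a counts as a percentage of the summed counts of Hspa1a and Hspa1b, 1 point per library with its 95% exact binomial interval, for the 8 conditions. The 12 WT libraries lie between 2.21% and 5.33% and the 4 Nrf2-/- libraries between 0.251% and 0.674%.

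The other members moved in both directions with the genotype. Under isosmotic conditions, Hsph1 was at 829 and 835 CPM in Nrf2-/- cells and at 591 and 630 CPM in WT cells (log2 fold change 0.45, SE 0.09, edgeR adjusted p = 8.91e-04). Hsp90aa1 was at 4444 and 3971 CPM in Nrf2-/- and at 2515 and 2910 CPM in WT cells (0.63, SE 0.17, edgeR adjusted p = 0.00821). Both were higher in the Nrf2-/- libraries without overlap. Dnajb1, at 112 and 127 CPM in Nrf2-/- cells (-0.39, edgeR adjusted p = 0.00777), and Bag3, at 64.4 and 57.3 CPM (-0.30, adjusted p = 0.0300), were lower than in WT cells. With Hspa1a, 2 members were called higher and 3 lower, beside 15.7% and 18.4% of all genes. Hsp90aa1 and Dnajb1 lost the call without WT replicate 1 (0.53 and -0.33, edgeR adjusted p = 0.0907 and 0.0865) or Nrf2-/- replicate 1 (0.55 and -0.31, 0.0698 and 0.0977). Bag3 lost it without WT replicate 2 (-0.21, 0.254) or Nrf2-/- replicate 2 (-0.22, 0.243), and with RLE size factors (-0.26, 0.0578) or no filter on low counts (-0.31, 0.117).

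After 1 h of stress, 4 members were called higher in Nrf2-/- cells and 2 lower, beside 15.3% and 16.2% of all genes. The higher ones were Hsp90aa1 (3603 and 5939 CPM, WT 2670 and 2621 CPM), Hspa8 (4764 and 5384 CPM, WT 3630 and 3667 CPM), Hsph1 (783 and 831 CPM, WT 578 and 583 CPM) and Hspa4l (314 and 451 CPM, WT 280 and 279 CPM). Their log2 fold changes were 0.85, 0.48, 0.48 and 0.45, with edgeR adjusted p from 6.10e-04 to 0.0275. The lower ones were Hspa1a, at 2.38 and 1.73 CPM (WT 16.4 and 15.0 CPM, log2 fold change -2.93), and Hspa1b, at 380 and 255 CPM (WT 424 and 427 CPM, log2 fold change -0.42, SE 0.14, edgeR adjusted p = 0.0327). With the pair summed, the log2 fold change was -0.46 (edgeR adjusted p = 0.0200). Hspb1, at 1452 and 726 CPM, and Hspe1, at 437 and 157 CPM, lay on both sides of the WT libraries, and among the members the 2 Nrf2-/- libraries differed most from each other for these genes.

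With only the 4 libraries compared in the fit, 1 member was called in place of 6, and that was Hspa1a. Hspa1b and Hspa4l lost the call without WT replicate 1 (-0.43 and 0.45, edgeR adjusted p = 0.116 and 0.119), WT replicate 2 (-0.42 and 0.45, 0.128 and 0.127) or Nrf2-/- replicate 2 (-0.16 and 0.17, 0.158 and 0.232). Hspa4l also lost it with library totals as the only scaling (0.34, 0.0698).

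**Figure D5:**
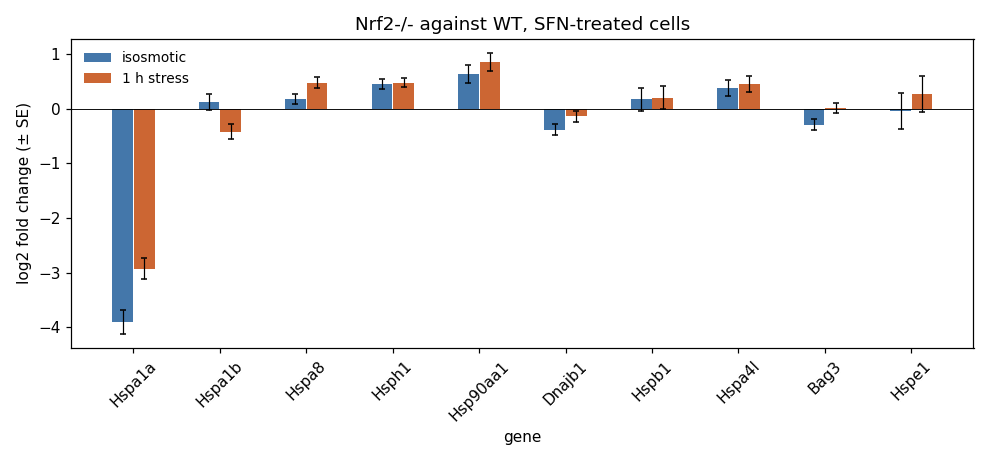
Log2 fold change of each member in Nrf2-/- against WT cells, both treated with SFN, isosmotic (blue) and after 1 h of hyperosmotic stress (orange), with the standard error from edgeR as the bar. Hspa1a stands at -3.90 and -2.93, and the other members lie between -0.42 and 0.85.

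Stress for 1 h in Nrf2-/- cells raised Hspa1a from 0.626 and 0.913 CPM to 2.38 and 1.73 CPM (log2 fold change 1.41, SE 0.24, edgeR adjusted p = 0.00272), from 22 and 34 counts to 84 and 60. With the pair summed, the log2 fold change was 0.29 (edgeR adjusted p = 0.271). Hspa1a was the 1 member called higher, with 0 lower, beside 4.36% and 2.81% of all genes, and it was not called with only these 4 libraries in the fit (edgeR adjusted p = 0.229). Hspa1b went from 249 and 275 CPM to 380 and 255 CPM, so 1 stressed library was above and the other between the isosmotic ones, at a log2 fold change of 0.28 (edgeR adjusted p = 0.284). That value was 0.54 (edgeR adjusted p = 2.22e-05) without Nrf2-/- 1 h replicate 2 and -0.044 without Nrf2-/- 1 h replicate 1. The stress effect did not differ by the test between Nrf2-/- and WT cells with SFN for any member, 0 higher and 0 lower by edgeR and by DESeq2, where 0.0615% of all genes were called in each direction. At an unadjusted p under 0.05 in edgeR there were 4 members and 1433 genes. For Hspa1a the difference of the stress effects was 0.97 (SE 0.30, edgeR adjusted p = 0.375), and it was called without Nrf2-/- 1 h replicate 2 (1.19, adjusted p = 0.0202). For Hspa1b the difference was -0.54 (SE 0.20, edgeR adjusted p = 0.524), and it was called without Nrf2-/- 1 h replicate 1 (-0.86, adjusted p = 7.28e-06).

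Hsf1 itself, at 95.9 to 147 CPM over the 16 libraries, was not called in any of the 14 comparisons. Hsf2, a related factor that forms mixed trimers with HSF1, went from 32.0 and 29.1 CPM in isosmotic DMSO-treated WT cells to 105 and 110 CPM after 6 h (log2 fold change 1.81, SE 0.17, edgeR adjusted p = 1.05e-06). It stayed uncalled after 1 h (37.2 and 35.9 CPM). With SFN, Hsf2 was at 62.2 and 67.4 CPM in isosmotic Nrf2-/- cells and 33.2 and 40.5 CPM in WT cells (log2 fold change 0.81, edgeR adjusted p = 0.00150). Nfe2l2 rose with stress at 6 h, from 77.8 and 74.7 to 145 and 140 CPM with DMSO (log2 fold change 0.90, edgeR adjusted p = 3.45e-06), and did not differ by the test between SFN and DMSO under isosmotic conditions (-0.07, adjusted p = 0.761).

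Outside the 10 members, 8 lists of other chaperones held 62 genes, of which 61 were tested. SFN under isosmotic conditions raised 2 of the 61 and lowered 0, beside 1.09% and 1.76% of all genes. The 2 were Hspb8 (a small HSP that works with BAG3, log2 fold change 0.96, edgeR adjusted p = 0.00314) and Chordc1 (an HSP90 cochaperone, 0.46, adjusted p = 0.0234). The median of the 61 was -0.050. After 1 h and 6 h of stress, SFN changed 0 of them in edgeR and in DESeq2, with 2 and 3 at an unadjusted p under 0.05 in edgeR. At these times edgeR called 0.0923% and 0.041% of all genes higher and 0% lower. Stress with DMSO for 1 h raised Hspa2 (0.72), a HSP70 family member best known from testis, and lowered Bag5 (-0.50), an exchange factor. With SFN the 1 h calls were Hspa2 (0.78) and Grpel2 (-0.40), a mitochondrial exchange factor, and in Nrf2-/- cells Grpel2 alone (-0.46). Of all genes, 7.1% were higher and 4.11% lower with DMSO, 5.94% and 3.58% with SFN, and 4.36% and 2.81% in Nrf2-/- cells.

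After 6 h with DMSO, 13 of the 61 were higher and 15 lower, at a median of 0.074. Of all genes tested, 23.9% were higher and 22% lower. By list, HSF1 and its regulators had 2 higher and 0 lower of 4, the other HSP70 and HSP110 genes 2 and 1 of 6, HSP90 and cochaperones 1 and 3 of 12, and the other J-domain proteins 1 and 5 of 12. The other small HSPs had 2 and 1 of 5 tested, the other BAG and exchange factors 2 and 2 of 6, the CCT chaperonin 0 and 2 of 8 and the mitochondrial chaperones 3 and 1 of 8. Most changed were Hsf4 (2.18, from 2 and 10 counts to 20 and 22) and Hsf2 upwards and Bag5 (-1.68) and Dnajb2 (-1.17), a J-domain protein, downwards. Between 1 h and 6 h, 14 were higher and 13 lower, beside 20.4% and 22% of all genes. The largest changes were those of Hspb2 (1.96) and Hspa12a (1.85) on one side and Dnajb14 (-1.28) and Dnaja4 (-1.25) on the other. After 6 h with SFN, 17 were higher and 15 lower, beside 24.7% and 22.9% of all genes. Hsf4 (2.86), Bag5 (-1.42) and Dnajb2 (-1.13) were again among the most changed. So was Hspb7, on 0 counts in both isosmotic SFN libraries and 2 and 20 counts at 6 h.

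Between genotypes with SFN, 8 of the 61 were higher in Nrf2-/- cells and 11 lower under isosmotic conditions, and 15 and 13 after 1 h. Of all genes, 15.7% were higher and 18.4% lower under isosmotic conditions, and 15.3% and 16.2% after 1 h. Apart from Hsf2, the most changed were Cct8 (a subunit of the CCT chaperonin, 0.62), Stub1 (the chaperone-linked ubiquitin ligase CHIP, -1.29) and Dnaja4 (-1.19) under isosmotic conditions. After 1 h they were Hspb8 (1.03), Hspa2 (-1.54) and Dnajb4 (-1.10), a J-domain protein. The SFN effect at 6 h differed from that under isosmotic conditions for 1 gene, Hspb8 (-1.16, edgeR adjusted p = 0.0243). Of all genes, 0.164% were called lower and 0.595% higher in that test. At 1 h and between the genotypes' stress effects, 0 of the 61 were called by edgeR or DESeq2, with 2 and 1 at an unadjusted p under 0.05 in edgeR. Of all genes, edgeR called 0.0718% lower and 0.487% higher at 1 h, and 0.0615% in each direction between the genotypes' stress effects.

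The members did not share a single profile over the 8 conditions. With each gene's log2 CPM standardized over the 8 condition means and averaged, the correlation of a member with this mean profile, which it is part of, was highest for Hsph1 (Pearson r = 0.975), Hspa4l (0.945), Bag3 (0.913) and Hspa1b (0.888). It was -0.338 for Hspa8 and 0.435 for Dnajb1. The range of condition means was 6.50 on the log2 scale for Hspa1a, 5.18 for Hspa1b and 3.49 for Hspa4l, against 0.412 for Hspb1 and 0.440 for Hspe1. Neither Hspb1 nor Hspe1 was called in the 14 comparisons by edgeR over the 16 libraries. Over the 12 WT libraries alone, all 10 members were called at 6 h against 1 h and after 6 h with SFN. Hspb1 was also called there after 6 h with DMSO (0.30, edgeR adjusted p = 0.00134). In that fit 10323, 11322 and 10923 of all genes were called in these 3 comparisons. Without a filter on low counts, all 10 members were also called at 6 h against 1 h, beside 8473 of all genes. Among 6682 other genes with a mean of at least 50 counts and a range of at least 1 on the log2 scale, the profiles most like the mean of the members were those of Pptc7 (0.978), Ripk2 (0.974), Kitl (0.973), Slc7a1 (0.971) and Deptor (0.960). For Hspa4l alone they were Prkar2b (0.997), Npepps (0.996), Zcchc2 (0.996), Patz1 (0.994) and Gfod1 (0.993). These correlations rest on 8 condition means that share libraries and scaling and are given as a description.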

How the data were processed

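RNA-seq was analysed for 16 libraries of mIMCD3 cells, 2 for each of 8 conditions, grouped by the sample labels. The extraction note in the labels names primary cells, while all other labels and the paper name mIMCD3, which was followed. The authors mapped reads to the mouse build mm10, sorted them with SAMtools and counted them per gene symbol with featureCounts. The paper names Hisat2 as the aligner and the submitters' processing notes name Bowtie2. Tool versions, the gene annotation, the use of strand and the rule for reads that fit several genes are not given in the sources used here, so counts of paralogs and overlapping genes can be split or lost. The deposited values were raw counts without normalization, and lines without a gene name were left out. Of gene counts from 1 to 10, 58% to 68.5% per library were even numbers, and a count may thus stand for less than 1 independent fragment. Binomial intervals cover counting error only and, as they treat counts as independent, may be too narrow for it.

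Tests used edgeR 4.0.16 in R 4.3.3 on all 16 libraries, with TMM scaling, the filter on low counts, robust quasi-likelihood F-tests, 1 coefficient per condition and Benjamini-Hochberg adjusted p under 0.05 over 19509 genes. P-values measure the spread between the 2 libraries of a condition, with all conditions sharing 1 estimate. The alternatives were DESeq2 1.42.0, RLE size factors, library totals alone, no filter, a floor of 10 counts per library, fewer libraries in the fit, the replicate number as a block, leaving out each library and Hspa1a and Hspa1b summed. The edgeR and DESeq2 steps were run on simulated counts with the same biological coefficient of variation, 0.1, in every library. In the data it ran from 0.0393 to 0.348 between conditions, so the simulation did not cover this unequal spread. Replicate numbers did not pair the samples. Correlations of the deviations between same-numbered libraries lay between -0.079 and 0.12 over 28 pairs of conditions, with 1 above 0.1.

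The members, the 8 lists of other chaperones and the comparisons were chosen with earlier results of these data known. Named were all members, Hsf1, Hsf2 and Nfe2l2, the 2 called genes per direction with the largest change among the 8 lists, and the 5 genes with the most similar profile (log2 CPM, prior count 2). Positions came from GENCODE M21 on GRCm38 by symbol, and promoter windows from RefSeq on GRCm38.p6. Lengths for CPM per kilobase were the union of annotated exons.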

Additional observations from a re-analysis of the deposited data

Results flagged for a closer look

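The SFN effect on 4 members differed between stressed and isosmotic cells by an interaction test in edgeR's quasi-likelihood fit. For Hspa1a the log2 fold change with SFN was 1.43 in isosmotic medium and -0.09 after 1 h of stress, a difference of -1.52. At 6 h the difference from isosmotic medium was -1.57. For Hspa1b it was 1.56 in isosmotic medium and 0.35 after 1 h, a difference of -1.21, and at 6 h the difference was -1.68. Hsph1 differed by -0.74 at 6 h (log2 fold change with SFN 0.76 isosmotic, 0.03 at 6 h), and Dnajb1 also by -0.74 (0.67 isosmotic, -0.07 at 6 h). All 6 differences use the same 4 isosmotic libraries, so stress and time since SFN cannot be told apart. Both differences at 1 h, and those of Hsph1 and Dnajb1 at 6 h, lost the call without single libraries, as given above.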

How the results depend on the processing

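With 2 libraries per condition, the number of members called depended on which libraries shared the estimate of the spread. With only the 12 WT libraries in the fit, the count went from 1 to 5 for SFN against DMSO at 1 h, from 0 to 1 at 6 h, from 2 to 4 for 1 h of stress with DMSO and also with SFN, from 6 to 10 for 6 h of stress with SFN, and from 4 to 7 for the SFN effect at 6 h against isosmotic. Without the Nrf2-/- SFN 1 h libraries it was 5 for SFN at 1 h, 4 for 1 h of stress with SFN, 7 for the SFN effect at 6 h against isosmotic and 8 in place of 5 for Nrf2-/- against WT under isosmotic conditions. In fits of the compared conditions' libraries alone it was 7 for SFN at 1 h, 1 for SFN at 6 h, 4 for 1 h of stress with SFN, 1 in place of 6 for Nrf2-/- against WT at 1 h and 0 in place of 1 for 1 h of stress in Nrf2-/- cells. DESeq2 called 2 members for SFN at 1 h. For 1 h of stress with SFN, 1 member in place of 2 was called without a filter, with at least 10 counts in every library and with the replicate block (where Dnajb1 lost the call, edgeR adjusted p = 0.0562), and without a filter 2 in place of 1 were called for 1 h of stress in Nrf2-/- cells. The replicate block changed no other count of members by over 1.5 times.

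Leaving out 1 library at a time gave 0 members for SFN at 1 h, 1 for 1 h of stress with SFN, 3 to 4 for Nrf2-/- against WT under isosmotic conditions and 1 to 6 for 1 h of stress in Nrf2-/- cells. It gave 0 to 2 for the SFN effect at 1 h against isosmotic, 2 to 3 for that at 6 h and 0 to 5 for the stress effect between genotypes. The 6 of Nrf2-/- cells and the 5 came without Nrf2-/- 1 h replicate 1, and without replicate 2 the counts were 4 and 3. The counts for SFN under isosmotic conditions (6), 6 h of stress with DMSO (7) and 6 h against 1 h (7) stayed within 1.5 times under every alternative run.

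Of 72 member values recomputed, 8 alternatives reversed a direction, 80 ended a call and 61 made one, while 828 did neither. With the pair summed, Hspa1a turned to 0.33 for SFN at 1 h, 0.056 for Nrf2-/- against WT under isosmotic conditions and -0.52 for the stress effect between genotypes, and its call for stress in Nrf2-/- cells was lost (0.29). With library totals alone, Hspe1 turned to -0.088 at 6 h with DMSO and Bag3 to -0.046 at 6 h with SFN. Without single libraries, Hspa1a for SFN at 1 h ranged from -0.25 to 0.11, Hspe1 at 6 h with DMSO from -0.032 to 0.22 and Hspa1b for stress in Nrf2-/- cells from -0.044 to 0.54.

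Over all genes, the calls depended on the fit as well. They went from 555 to at most 2875 for SFN under isosmotic conditions, from 2186 to 4334 for 1 h of stress with DMSO, from 1857 to 3466 with SFN, and from 109 to 585 and 148 to 803 for the SFN effect at 1 h and 6 h against isosmotic, each highest with only the 12 WT libraries in the fit. With only the compared conditions in the fit they went from 18 to 809 for SFN at 1 h, from 8 to 106 for SFN at 6 h, from 6154 to 1651 for Nrf2-/- against WT at 1 h, from 1399 to 7 for stress in Nrf2-/- cells and from 24 to 0 for the stress effect between genotypes. At least 10 counts in every library left 654 for 1 h of stress with DMSO and 535 with SFN, and the replicate block left 2 for SFN at 6 h. No filter gave 2130 for stress in Nrf2-/- cells and 160 for the stress effect between genotypes. Leaving out 1 library gave 171 to 302 for SFN under isosmotic conditions, 6 to 9 at 1 h and 1 to 2 at 6 h, 948 to 1264 for 1 h of stress with DMSO, 709 to 995 with SFN and 538 to 5079 in Nrf2-/- cells, 3946 to 8917 for Nrf2-/- against WT at 1 h, 48 to 70 and 69 to 93 for the SFN effect at 1 h and 6 h against isosmotic, and 8 to 2072 for the stress effect between genotypes. With only the 12 WT libraries, 9288 became 11322 for 6 h of stress with SFN and 8266 became 10323 for 6 h against 1 h. Without the Nrf2-/- SFN 1 h libraries, 6643 became 8909 for Nrf2-/- against WT under isosmotic conditions. DESeq2 called 576 genes higher and 558 lower for SFN under isosmotic conditions. The cause of these shifts was not tested.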
